A study of Homo sapiens with 2 samples.

Results

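The genes described here are 10 regulators of alternative splicing that are known from neural or epithelial cells. They are the polypyrimidine tract-binding protein genes PTBP1 and PTBP2, NOVA1 and NOVA2, RBFOX1, RBFOX2 and RBFOX3, SRRM4, and the epithelial splicing regulator genes ESRP1 and ESRP2. They were taken from the tables by symbol, and all 10 were found among 24462 symbols, each on a single row of the count tables. RNA sequencing compared 1 library of neural precursor cells (NPC) with 1 library of undifferentiated human embryonic stem cells (hESC). Both were of H9, an established pluripotent human cell line, and the NPC had been made from it on a feeder layer of MS5, a line of mouse stromal cells. The labels name no other treatment, genotype or time point, and both groups share the single line of origin. The NPC library held 24065750 counted reads and the hESC library 19686728.

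Alternative splicing joins the exons of 1 gene in different combinations, and RNA-binding proteins decide which exons are kept. PTBP1 is a repressor of many neural exons and is abundant in most cells that are not neurons, while its paralog PTBP2 is known from neural progenitors and young neurons. NOVA, RBFOX and SRRM4 proteins promote or repress exons used in neurons, and SRRM4 acts mainly on very short exons. ESRP1 and ESRP2 set the epithelial forms of transcripts such as FGFR2 and CD44. The deposited values are reads per gene, so they give the level of these regulators and not which exons were used.

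PTBP1 and PTBP2 are linked by a short exon whose length is not a multiple of 3. In many cells PTBP1 protein causes this exon of PTBP2 to be skipped, which shifts the reading frame and leads to decay of the transcript, and PTBP1 limits its own level through the matching exon of its own gene. Both exons are shown because the PTBP2 level below cannot be read as protein without knowing whether this exon was included. They come from the GENCODE 29 transcripts of build GRCh38, in which each is exon 10 of 14 on the + strand and 34 bases long. The exon is in capitals, with 30 bases of each neighbouring exon in lower case.
PTBP1, chr19:807869-807902: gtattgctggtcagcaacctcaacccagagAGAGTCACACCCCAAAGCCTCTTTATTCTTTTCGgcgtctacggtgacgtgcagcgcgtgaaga
PTBP2, chr1:96806419-96806452: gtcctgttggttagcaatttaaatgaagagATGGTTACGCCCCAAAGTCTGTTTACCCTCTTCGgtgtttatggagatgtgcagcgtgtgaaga
The capital stretches are the same at 25 of 34 positions (73.5%), and each holds 22 pyrimidines. Of 21 annotated PTBP1 transcripts, 6 hold the exon and 2 skip it, and both of the skipping ones are annotated as targets of nonsense-mediated decay. Of 11 annotated PTBP2 transcripts, 6 hold it and 3 skip it, and the 3 are annotated as transcripts without a protein.

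Marker genes were checked against the labelled cell types. All 5 pluripotent cell markers were lower in the NPC library, and 4 of 6 measured neural progenitor markers were higher. SOX2 and NES, the other two, differed by less than 2-fold. Neuron markers were present as well, with 5 of 8 higher and a summed level of 1750.1 CPM in the NPC library, against 391 CPM in the hESC library. Stroma markers (4 of 5 measured higher) summed to 934 CPM in the NPC library and 389 CPM in the hESC library. These counts stand beside 19.6% of all measured genes called higher and 19.8% called lower, by the rule given below. Of the higher markers, 2 progenitor, 3 neuron and 2 stroma genes reached 5 CPM in the hESC library. For the other higher markers a lower call was out of reach. Only 1 pluripotent cell marker reached 5 CPM in the NPC library, so for the rest a higher call was out of reach. Whether RNA of the mouse MS5 feeder layer added reads to the NPC library was not tested. In bulk RNA fewer cells of a type and less RNA per cell cannot be told apart. Each group was 1 library, so differences have no replicate check and no p-value was computed.

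The 10 regulators did not move together. NOVA1, RBFOX1 and SRRM4 were higher in the NPC library, PTBP1, RBFOX3, ESRP1 and ESRP2 were lower, and PTBP2, NOVA2 and RBFOX2 differed by less than 2-fold. Levels are given as CPM (counts per 1000000 reads), with library sizes adjusted by the trimmed mean of M-values (TMM). A gene counted as measured at 5 CPM or more in either library. It was called higher or lower if its whole 95% counting interval lay at or beyond 2-fold, and this is the size rule used throughout. All 10 members were measured, 6 of them at 5 CPM or more in both libraries. RBFOX1 was measured through its NPC level only, so a call in the lower direction was out of reach for it. RBFOX3, ESRP1 and ESRP2 were measured through their hESC level only, so a higher call was out of reach. The 3 higher members stand beside a background of 19.6% of 13535 measured genes called higher, and the 4 lower members beside 19.8% called lower. With 10 genes these shares do not set the group apart. The median log2 ratio of the members was 0.02, against -0.09 for all measured genes.

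**Figure D1:**
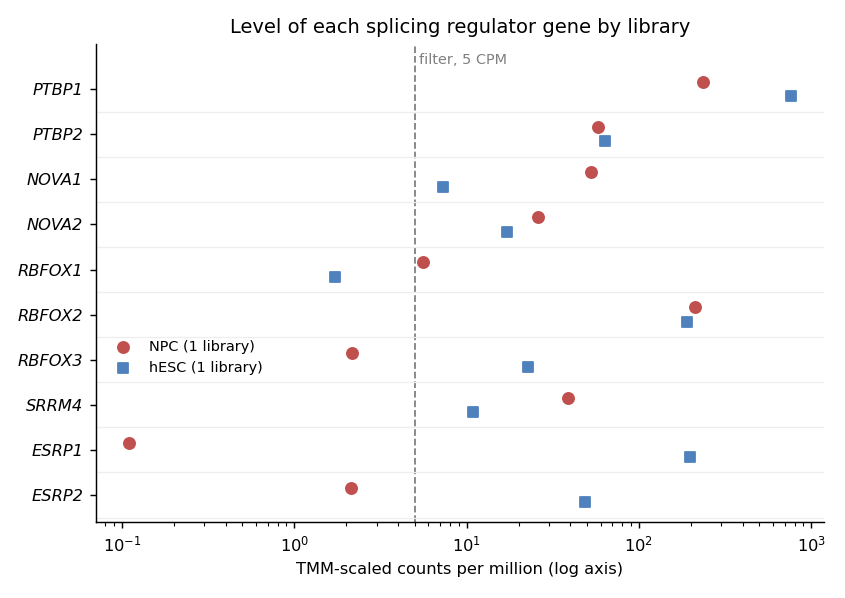
TMM-scaled CPM (log axis) of the 10 splicing regulator genes in the NPC library (red circles) and the hESC library (blue squares), with the 5 CPM filter dashed. ESRP1 lies at 0.110 CPM in the NPC and 198 CPM in the hESC library, while the NPC and hESC points of PTBP2 and of RBFOX2 lie close to each other.

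PTBP1 was lower in the NPC library but still had the most reads of the 10 genes there. It had 6381 reads (235 CPM) in the NPC library and 13216 reads (760.3 CPM) in the hESC library. That is 3.24-fold lower in the NPC library (95% counting interval 3.15 to 3.34). PTBP2 had 1584 reads (58.2 CPM) in the NPC library and 1101 reads (63.3 CPM) in the hESC library, a ratio of 0.919 (0.851 to 0.994). PTBP2 therefore did not pass the size rule, and its direction depended on scaling, with a log2 ratio of -0.12 with TMM and 0.24 with the library total.

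The balance of the pair is free of library scaling. For each 100 PTBP1 reads there were 24.8 PTBP2 reads in the NPC library and 8.33 in the hESC library, a ratio 2.98 times as high in the NPC library (2.74 to 3.24). This change is not free of the trend of the ratio with transcript length. With that trend removed the log2 ratio was -1.81 for PTBP1 and -0.53 for PTBP2, against -1.7 and -0.12 with TMM. Per kilobase of the longest annotated transcript PTBP1 had 50.3 CPM in the NPC library and 163 CPM in the hESC library, while PTBP2 had 4.85 CPM per kilobase in the NPC library and 5.27 CPM per kilobase in the hESC library. PTBP1 was thus the more abundant paralog per length in both. It was also above PTBP2 per length with the median transcript length and with the principal transcripts, which were added after the data were seen. PTBP3, the third paralog and more widely known from blood cells, had 726 reads (26.7 CPM) in the NPC library and 1744 reads (100.3 CPM) in the hESC library. PTBP3 was 3.76-fold lower in the NPC library (3.45 to 4.10).

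Partners of PTBP1 went the same way or did not pass the rule. RAVER1, a corepressor that binds PTBP1, had 53.2 CPM in the NPC library and 119.5 CPM in the hESC library and was 2.25-fold lower (2.10 to 2.40), but not past the rule with the library total (log2 ratio -0.81). MATR3, another RNA-binding partner, had 804 CPM in the NPC library and 904 CPM in the hESC library, within the rule. MYC, a transcription factor reported to activate PTBP1 in tumour cells, was 85.3-fold lower in the NPC library (63.2 to 121), with 40 reads against 2208 in the hESC library. The host transcript of a miR-124 gene, LINC00599, is of interest because miR-124 represses PTBP1 in neurons. It was looked up after the other values were seen and had 83 reads (3.05 CPM) in the NPC library and 26 reads (1.5 CPM) in the hESC library, below the filter in both. The part of MYC and of miR-124 in the PTBP1 level was not tested.

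Genes with exons known to be controlled by PTBP1 split. In the NPC library 3 of 10 were higher and 4 lower, or 4 and 2 with the library total, and their median log2 ratio was 0.16. For this list and those of NOVA, SRRM4 and ESRP targets below, the counts are read beside the background of 19.6% higher and 19.8% lower, from which lists this short are not set apart. DLG4 and GABBR1 are of the kind in which PTBP1 causes an exon to be skipped and the transcript to decay. DLG4, the gene of the synaptic scaffold PSD-95, had 3693 reads (136 CPM) in the NPC library and 791 reads (45.5 CPM) in the hESC library, 2.98-fold higher (2.76 to 3.23). GABBR1, a GABA-B receptor subunit gene, had 2268 reads (83.4 CPM) in the NPC library and 321 reads (18.5 CPM) in the hESC library, 4.51-fold higher (4.02 to 5.09). Both genes were higher in the library with less PTBP1, which also held more of the neuron markers. Neither the part of PTBP1 nor that of the neuron markers in this was tested. PTBP2, with an exon of the same kind, had a ratio of 0.919 (0.851 to 0.994) and did not pass the rule. The calcium channel gene CACNA1C was 4.95-fold higher (3.82 to 6.61). At the other end, the actin crosslinker gene ACTN1 was 5.44-fold lower (5.23 to 5.66) and the tropomyosin gene TPM1 2.94-fold lower (2.84 to 3.05). SRC, whose neural form gains a very short exon when PTBP1 is low, had 55.9 CPM in the NPC library, against 32.1 CPM in hESC, which was within the rule.

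**Figure D2:**
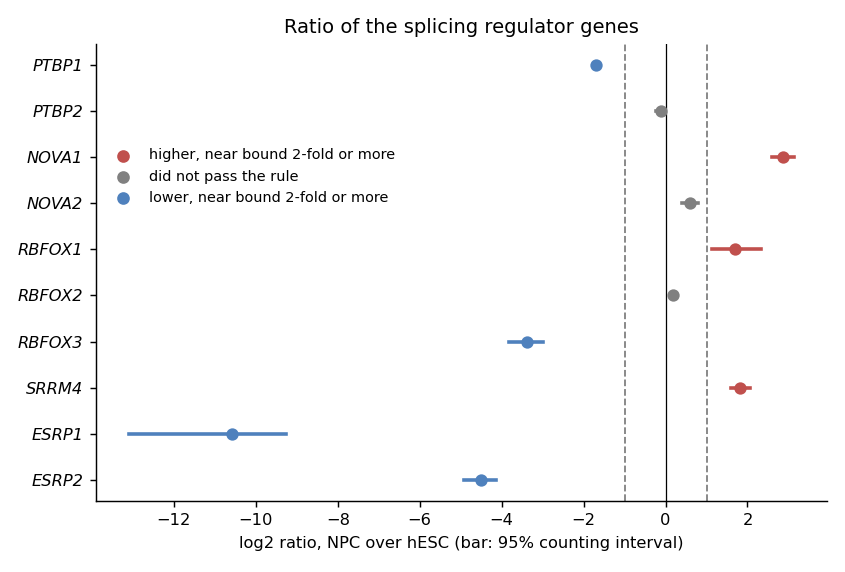
Log2 ratio, NPC over hESC, of the 10 genes with the 95% counting interval as a bar, and dashed lines at 2-fold. NOVA1 (2.86), SRRM4 (1.82) and RBFOX1 (1.69) lie on the higher side, PTBP1 (-1.70), RBFOX3 (-3.38), ESRP2 (-4.51) and ESRP1 (-10.59) on the lower side.

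NOVA1 and NOVA2 encode neuronal RNA-binding proteins that recognise clusters of YCAY in transcripts. NOVA1 had 1441 reads (53.0 CPM) in the NPC library and 126 reads (7.25 CPM) in the hESC library, 7.28-fold higher in the NPC library (6.09 to 8.84). It was the member with the largest ratio on the higher side. NOVA2 had 704 reads (25.9 CPM) in the NPC library and 299 reads (17.2 CPM) in the hESC library, a ratio of 1.5 (1.31 to 1.73), and did not pass the rule. The paralogs changed places in their read balance, with 48.9 NOVA2 reads for each 100 NOVA1 reads in the NPC library and 237 in the hESC library. The NOVA2 to NOVA1 ratio was 4.85 times lower in the NPC library (3.85 to 6.14). Per kilobase of longest transcript NOVA1 made up 70.8% of the pair in the NPC library and 33.3% in the hESC library. With the median transcript length the share was 60.1% in the NPC library and 23.7% in the hESC library, and with the principal transcripts it was 80.3% in the NPC library and 45.7% in the hESC library.

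Of 11 measured genes with NOVA-controlled exons, 3 were higher and none was lower, and the list's median log2 ratio was 0.27. DCC, a netrin receptor gene of growing axons, had 3199 reads (118 CPM) in the NPC library and 38 reads (2.19 CPM) in the hESC library, 53.1-fold higher (39.1 to 76.2). NEO1, the gene of the related receptor neogenin, was 2.58-fold higher (2.43 to 2.73), but not past the rule with the length trend removed (log2 ratio 1.07). The Reelin adaptor gene DAB1, with an exon known from work on mouse NOVA2, had 24.3 CPM in the NPC library and 25.1 CPM in the hESC library.

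RBFOX proteins bind UGCAUG and favour or repress an exon by the side on which they bind. RBFOX2, the broadly expressed paralog, had 5763 reads (212 CPM) in the NPC library and 3281 reads (189 CPM) in the hESC library. Its ratio of 1.12 (1.08 to 1.17) did not pass the rule. RBFOX1, known from neurons and muscle, had 153 reads (5.62 CPM) in the NPC library and 30 reads (1.73 CPM) in the hESC library, 3.22-fold higher (2.19 to 4.99). Its NPC level was just above the 5 CPM filter. Measured muscle markers split, with 1 of 3 higher and 2 lower, and all 6 markers of the list summed to 25.7 CPM in the NPC library and 163 CPM in the hESC library.

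RBFOX3, which encodes the NeuN antigen of mature neurons, was lower in the NPC library. It had 59 reads (2.17 CPM) in the NPC library and 396 reads (22.8 CPM) in the hESC library, 10.4-fold lower in the NPC library (7.97 to 14.1). Of the 8 neuron markers 5 were higher in the NPC library, among them the stathmin gene STMN2, 45.9-fold higher (36.9 to 58.6). The other 3, SYT1, TUBB3 and SYN1, were within the rule. For each 100 RBFOX2 reads there were 1.02 RBFOX3 reads in the NPC library and 12.1 in the hESC library. RBFOX1 went the other way, with 2.65 reads in the NPC library and 0.914 in the hESC library for each 100 of RBFOX2. RBFOX2 thus held most of the family per kilobase of longest transcript in both libraries, 94.2% in the NPC and 77.8% in the hESC library, where RBFOX3 held 21.2%. In GENCODE 29 no annotated gene shares exon bases with RBFOX3.

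SRRM4 encodes a serine- and arginine-rich activator of neural microexons, and the repressor REST is known to hold it down outside the nervous system. SRRM4 had 1047 reads (38.5 CPM) in the NPC library and 189 reads (10.9 CPM) in the hESC library, 3.53-fold higher (3.03 to 4.16). In GENCODE 29 it shares 25 exon bases with an antisense transcript, whose reads could not be told apart without a stated strand setting. Its paralog SRRM3 had 258 reads (9.48 CPM) in the NPC library and 228 reads (13.1 CPM) in the hESC library, within the rule. REST had 96.8 CPM in the NPC library and 96.4 CPM in the hESC library, a log2 ratio of 0.01 (-0.29 with the length trend removed), and its part in the SRRM4 level was not tested. The REST corepressor gene RCOR1 had 50.3 CPM in the NPC library and 42.8 CPM in the hESC library. SRRM4 protein can turn REST into a truncated form by inclusion of a neural exon, which counts per gene cannot show.

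Of 6 genes with SRRM4-controlled exons, all measured, 2 were higher and 1 lower (median log2 ratio 0.31). DAAM1, a formin gene, was 2.60-fold higher (2.45 to 2.76) and APBB1, the gene of an amyloid precursor-binding adaptor, 2.48-fold higher (2.25 to 2.75). EIF4G1, a translation initiation scaffold gene, had 443 CPM in the NPC library and 1469 CPM in the hESC library, 3.31-fold lower (3.24 to 3.39).

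**Figure D3:**
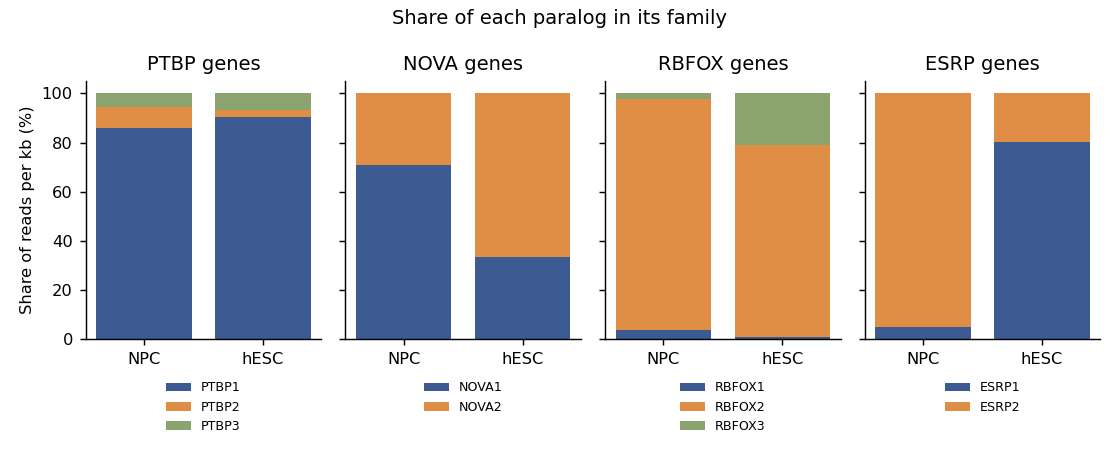
Share of each paralog in the reads per kilobase of longest transcript of its family (%), NPC and hESC library side by side. PTBP1 and RBFOX2 hold most of their families in both libraries, while NOVA1 (70.8% in NPC, 33.3% in hESC) and ESRP1 (4.91% in NPC, 80.2% in hESC) change places with their paralogs. For ESRP1 this depends on the length used, since with the median transcript length it held 49.0% in hESC and ESRP2 51.0%.

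The epithelial regulators were lower in the NPC library by the largest ratios among the members. ESRP1 had 3 reads (0.110 CPM) in the NPC library and 3450 reads (198 CPM) in the hESC library, with a ratio of 0.000648 (0.000115 to 0.00163). The size of this difference depended on how few reads are treated, since log2 of CPM + 1 gave 179.7-fold lower, against 1543-fold with 0.5 added to each count. That NPC level equals the upper limit that a count of 0 would allow (3 reads). ESRP2 had 58 reads (2.13 CPM) in the NPC library and 849 reads (48.8 CPM) in the hESC library, 22.7-fold lower (17.5 to 30.4). The relation between the paralogs turned round, with 19.3 ESRP2 reads for each ESRP1 read in the NPC library and 0.246 in the hESC library. The change of that ratio was 78.5-fold (25.5 to 393), a wide interval because it rests on 3 ESRP1 reads. Per kilobase ESRP1 held 80.2% of the pair in the hESC library with the longest transcripts and 49.0% with the median transcript length. Of the ratios of all measured genes, that of ESRP1 lay at percentile 0.0813 and that of ESRP2 at percentile 1.97. ESRP2 shares 149 exon bases with NFATC3 on the opposite strand (1160 reads in the NPC library, 873 in the hESC library). Without a stated strand setting, reads in that stretch cannot be assigned to either gene.

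Epithelial genes were lower with them. All 8 measured epithelium markers were lower, beside the background of 19.8% lower. The list of 9 summed to 125 CPM in the NPC library and 2724 CPM in the hESC library, with no marker at 0. Among the markers KRT8 (80.5 CPM), KRT18 (27.4 CPM) and EPCAM (13.5 CPM) kept more than 5 CPM in the NPC library. For the other measured markers a higher call was out of reach. The part of the epithelium markers in the ESRP values was not tested. Genes with exons known to be set by ESRP proteins were closer to no change, with 2 of 9 measured lower and none higher, and a median log2 ratio of -0.56. FGFR2, the receptor gene whose epithelial IIIb form depends on ESRP proteins, had 952 reads in the NPC library and 1674 reads in the hESC library, 2.75-fold lower (2.54 to 2.98). With the library total FGFR2 did not pass the rule (log2 ratio -1.10), and no gene of the list was lower. CD44 had 14.0 CPM in the NPC library and 20.4 CPM in the hESC library, and CTNND1, the gene of p120-catenin, had 253 CPM in the NPC library and 372 CPM in the hESC library.

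Transcription factors known to act on ESRP genes or on the epithelial state went both ways. ZEB1, a repressor of epithelial genes that include ESRP1, had 3960 reads (146 CPM) in the NPC library and 33 reads (1.90 CPM) in the hESC library, 75.5-fold higher (54.5 to 112). The related ZEB2 had 2609 reads (95.9 CPM) in the NPC library and 15 reads (0.863 CPM) in the hESC library, 108-fold higher (67.3 to 199). GRHL2, an activator of epithelial genes, had 7 reads (0.257 CPM) in the NPC library and 355 reads (20.4 CPM) in the hESC library, 74.2-fold lower (38.1 to 199). OVOL2, a repressor of ZEB1, had 0 reads in the NPC library and 75 reads (4.31 CPM) in the hESC library, below the filter in both. The list of 13 upstream regulators also holds MYC, REST and RCOR1, described above. Of the 13, 8 were measured, 3 were higher and 3, MYC among them, were lower (median log2 ratio 0.12). None of the higher genes reached 5 CPM in the hESC library, and none of the lower ones reached it in the NPC library. The opposite call was thus out of reach for each called gene. A list this short is not set apart from the background of 19.6% higher and 19.8% lower. SNAI1 was lower and SNAI2 higher, so the genes of EMT factors did not all move one way. The part of ZEB1, ZEB2, GRHL2, OVOL2, SNAI1 and SNAI2 in the ESRP values was not tested. Nor was that of the stroma markers, higher in the same library, in the values of ZEB1 and ZEB2.

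**Figure D4:**
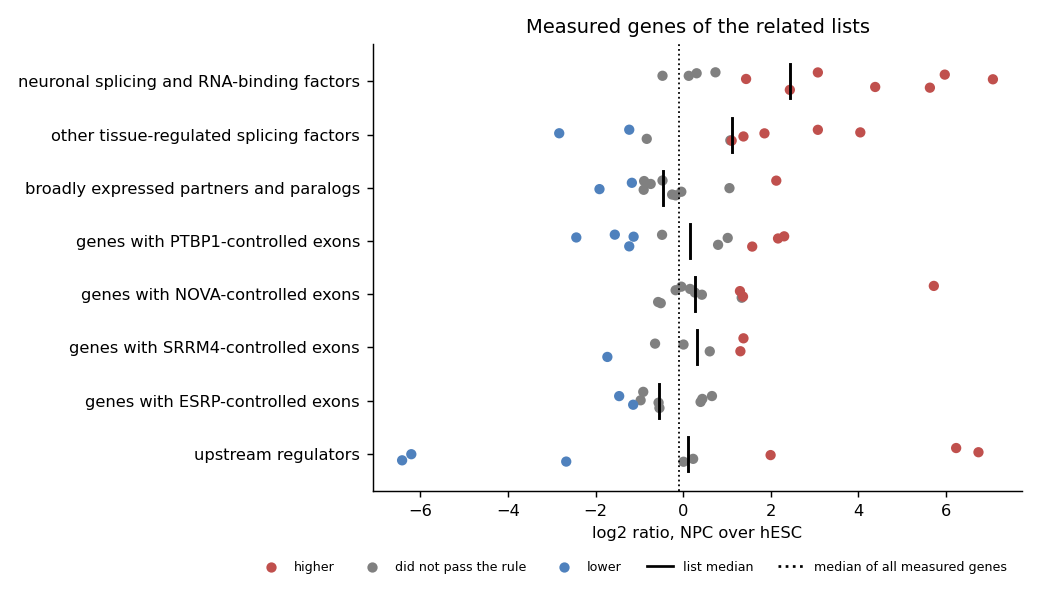
Log2 ratio, NPC over hESC, of each measured gene in 8 related lists, coloured by call, with the list median as a black bar and the median of all measured genes (-0.09) dotted. The neuronal factors have the highest median (2.44) and the genes with ESRP-controlled exons the lowest (-0.56).

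Other neuronal splicing and RNA-binding factor genes were mostly higher. Of 11 measured, 7 were higher and none was lower, beside the background of 19.6% higher and 19.8% lower. Their median log2 ratio was 2.44. ELAVL4, which encodes the neuronal protein HuD, had 1530 reads (56.2 CPM) in the NPC library and 15 reads (0.863 CPM) in the hESC library, 63.1-fold higher (39.4 to 117). CELF6 had 317 reads in the NPC library and 1 in the hESC library, a ratio of 135 (36.1 to 8026). Of the 7 higher genes, 3 (ELAVL3, CELF5 and MSI1) reached 5 CPM in the hESC library, and for the rest a lower call was out of reach. ELAVL2, KHDRBS2, KHDRBS3 and SRRM3 did not pass the rule. The neuron markers were higher in the same library, and their part in these counts was not tested.

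Splicing factors of other tissues also went both ways. Of 9 measured, 5 were higher and 2 lower (median log2 ratio 1.11), beside the background of 19.6% higher and 19.8% lower. MBNL2, a muscleblind gene, had 843 reads (31.0 CPM) in the NPC library and 32 reads (1.84 CPM) in the hESC library, 16.6-fold higher (11.8 to 24.8). RBM24, known from heart and skeletal muscle, was 8.47-fold higher (4.80 to 18.1) at 5.59 CPM in the NPC library, just above the filter. QKI, which is expressed in neural progenitors, glia and stroma, reached 737 CPM in the NPC library, against 340.5 CPM in the hESC library. RBM47, an RNA-binding protein gene of epithelia, had 410 reads (15.1 CPM) in the NPC library and 1859 reads (107 CPM) in the hESC library, 7.09-fold lower (6.37 to 7.92). RBM38 was 2.35-fold lower (2.11 to 2.62), but not past the rule with the library total (log2 ratio -0.87). With the length trend removed MBNL1 (log2 ratio 1.12) and QKI (0.76) were no longer past it. Stroma markers were also higher in the NPC library, and their part in the values of QKI and the MBNL genes was not tested.

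Most broadly expressed partners and paralogs did not pass the rule. Of 11 measured, 8 were within it, 2 were lower (PTBP3 and RAVER1) and 1 was higher (median log2 ratio -0.47). The higher one was MSI2, the gene of an RNA-binding protein of stem cells, with 141 CPM in the NPC library and 32.2 CPM in the hESC library, 4.37-fold higher, with the near bound of its interval past 2-fold. SRRM2, a scaffold protein gene of nuclear speckles, had 1103 CPM in the NPC library and 1134 CPM in the hESC library. Over the 3 lists of other splicing factors, 13 of 31 measured genes were higher and 4 lower, beside the background of 19.6% higher and 19.8% lower. Of the 13, 7 reached 5 CPM in the hESC library, and for the rest a lower call was out of reach.

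Scaling shifted all members alike and left the 7 calls in place. With the library total in place of TMM every log2 ratio was 0.36 higher, and 67.2% of all calls were then on the higher side, against 49.7% with TMM. The 3 higher and 4 lower members stayed so under each of the other scalings and with the trend of the ratio with transcript length removed. Among the others the sign was less firm, since PTBP2 turned to 0.24 with the library total and RBFOX2 to -0.11 with the length trend removed, against 0.17 with TMM.

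**Figure D5:**
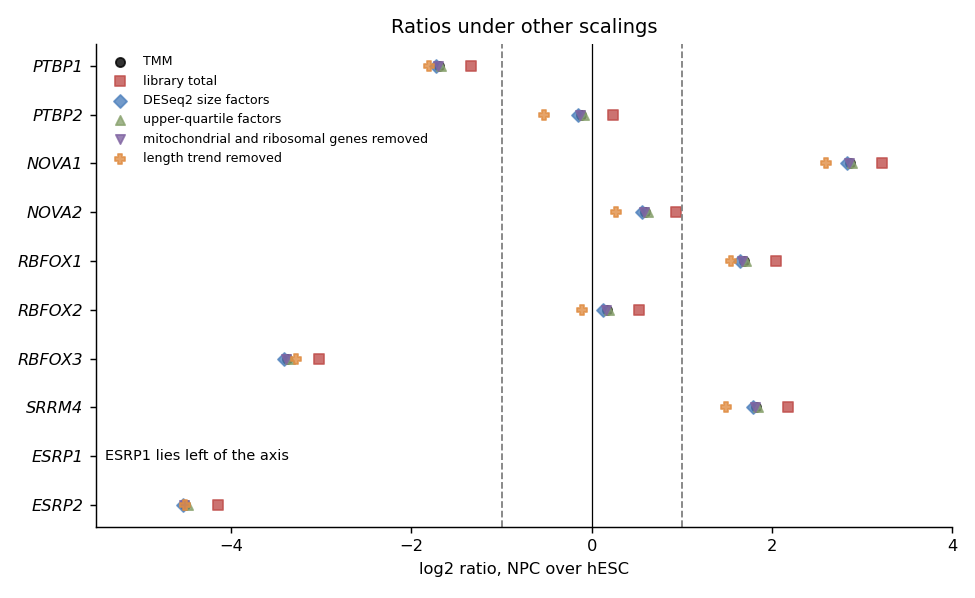
Log2 ratio, NPC over hESC, of the members under TMM, 3 other scalings, removal of mitochondrial and ribosomal protein genes and removal of the length trend, with dashed lines at 2-fold. PTBP2 lies between -0.53 and 0.24 and RBFOX2 between -0.11 and 0.52, on both sides of 0, and ESRP1 (-10.62 to -10.23) lies left of the axis.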

How the data were processed

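Total RNA (1.3 µg per library) was taken up in Trizol and made into libraries with a SMARTER mRNA-Seq kit, per the labels' protocols. The authors deposited raw read counts per gene symbol, 1 file per library. TopHat, edgeR and build hg19 are named in the submitters' processing notes without role. No source used here states the counting tool, its strand setting or the annotation. Files held 25737 rows, and for 286 symbols on several rows that with most reads was kept.

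Counts were scaled with TMM factors (1.13 for NPC, 0.884 for hESC, edgeR 4.0.16, R 4.3.3), with 0.5 added for the point ratio. Intervals are exact 95% counting intervals (Clopper-Pearson on the NPC share of reads, or conditional for ratios between paralogs). They cover counting error only: variation between cultures is not in them, and PCR copies of a molecule count as separate reads. The filter of 5 CPM rests on 136 reads in the NPC and 86.9 in the hESC library, and a count of 0 allows 0.110 CPM in the NPC and 0.173 CPM in the hESC library. Transcript lengths come from GENCODE 29 (found for 94.8% of measured genes), a build other than hg19, and exon sequences from the same release.

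Members, lists and rules were chosen with earlier results of these data known. Named genes are all members and, from each list, up to 2 higher and 2 lower by the near bound. A gene that this rule takes is not reported here. Others, such as DLG4, QKI, REST, SRC, DAB1, CD44, MATR3, OVOL2 and the neuron markers, were chosen after their values were seen. Alternatives were DESeq2 1.42.0 size factors, upper-quartile factors and the library total, filters at 1 and 20 CPM or none, a 4-fold bound, the point ratio, log2 of CPM + 1, summed rows, removal of mitochondrial and ribosomal protein genes and of the length trend (lowess, statsmodels 0.14.6), and other transcript lengths. The ratio code was tested on simulated data. Python 3.11.15 and scipy 1.17.1 were used.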

Additional observations from a re-analysis of the deposited data

How the results depend on the processing

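No paired analysis was possible because each group has 1 library, and leaving out a library was not possible for the same reason. With a 4-fold bound 1 member (NOVA1) was still called higher, and PTBP1, RBFOX1 and SRRM4 did not pass. Over all genes 1236 were then higher and 983 lower, against 2649 higher and 2683 lower at 2-fold, and 1 other splicing factor was lower, against 4. With a filter at 20 CPM 1684 genes were higher and RBFOX1 was below the filter. With the library total 3679 genes were higher and 1796 lower, and 2 other splicing factors were lower. Under the settings run, no called member turned its direction. Summing rows could not change the paralog ratios, since each member is on a single row. Levels per kilobase depended on the transcript chosen: ESRP1 made up 49.0% of its family in the hESC library with the median length and 80.2% with the longest. A single library per group limits all comparisons, and low counts limit ESRP1 (3 reads) and RBFOX1 (30 reads in hESC) most.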
